A study of Mus musculus with 69 samples.

Results

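The 9 genes examined here encode CXC chemokines (Cxcl1, Cxcl2, Cxcl3, Cxcl10, Cxcl16 and Pf4) and receptors for chemoattractants (Ccr1, Fpr1 and Fpr2). Each was found as 1 row by its symbol among the 54532 genes of a microglia count table. They were followed in 69 mouse libraries of 3′ end RNA sequencing, which come from 3 experiments that bear on Toll-like receptor 7 (TLR7, encoded by Tlr7), which senses RNA in endosomes. In the first, primary microglia of postnatal days 1 to 3 from female (F) or male (M) mice, either Tlr7-/- (knockout, KO) or wild type (WT), were given myelin or DMSO, with 3 libraries in each of the 8 groups. In the second, hippocampus was taken from aged WT mice given gardiquimod, a TLR7 agonist, or saline, with 7 libraries per sex and treatment. Females were 9.6 and males 12.12 months old, so sex and age cannot be told apart there. In the third, hippocampus came from mice of the genotype labelled PSUK+, which the labels do not describe further, given an unnamed TLR7 inhibitor (5 F and 6 M libraries) or its control (Ctrl; 3 F and 3 M libraries) at 5.50 to 6.85 months, 1 of these ages being given without a unit. The labels name RNA of microglia for all 69 libraries, although 45 of them are labelled hippocampus. In those 45 the summed level of 14 microglia markers was 295 to 691 CPM and that of 7 neuron markers 3221 to 6946 CPM (counts per 1000000 counts of a library).

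Chemokines are small secreted proteins that guide leukocytes along a concentration gradient through G protein-coupled receptors. In mice the products of Cxcl1, Cxcl2 and Cxcl3 draw neutrophils through the receptor CXCR2, and the genes are typical targets of NF-kB. The product of Cxcl10 draws activated T cells through CXCR3 and is induced by interferons, and the product of Cxcl16 is made as a membrane protein that binds CXCR6 and takes up oxidised lipoprotein. Pf4 encodes CXCL4, stored in platelet granules and also made by macrophages of the brain borders and by cultured microglia. Ccr1 encodes a receptor for CC chemokines such as CCL5, and Fpr1 and Fpr2 encode receptors for formylated bacterial or mitochondrial peptides, of which Fpr2 also binds annexin A1 and serum amyloid A.

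The 250 bases before the transcription start are shown for Cxcl1, Cxcl2 and Cxcl3, which differed in how they followed genotype, and for the interferon-induced Cxcl10 (RefSeq, GRCm38.p6; 8 of the 9 genes had an entry and Cxcl16 had none). The windows are chr5:90890995-90891244 (+ strand) for Cxcl1, chr5:90903649-90903898 (+ strand) for Cxcl2, chr5:90785851-90786100 (+ strand) for Cxcl3 and chr5:92348890-92349139 (- strand) for Cxcl10. They end at the start RefSeq gives, which is not always the gene start of the deposited tables given further on. Capitals mark every match on either strand to 3 patterns. The NF-kB pattern was GGGA, any 2 bases and TTCC, or GGGA, any 3 bases and CCC. The pattern of an interferon-stimulated response element was GAAA, any 2 bases and GAAA, and that of AP-1 was TGANTCA.
Cxcl1: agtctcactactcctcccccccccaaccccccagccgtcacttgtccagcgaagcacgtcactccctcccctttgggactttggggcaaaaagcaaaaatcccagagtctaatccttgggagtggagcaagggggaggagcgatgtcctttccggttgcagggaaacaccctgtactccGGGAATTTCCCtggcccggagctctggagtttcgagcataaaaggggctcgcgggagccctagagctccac
Cxcl2: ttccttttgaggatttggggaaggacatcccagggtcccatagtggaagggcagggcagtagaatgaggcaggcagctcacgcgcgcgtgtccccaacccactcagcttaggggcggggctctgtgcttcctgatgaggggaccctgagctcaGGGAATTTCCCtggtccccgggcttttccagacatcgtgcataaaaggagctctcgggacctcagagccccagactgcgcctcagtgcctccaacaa
Cxcl3: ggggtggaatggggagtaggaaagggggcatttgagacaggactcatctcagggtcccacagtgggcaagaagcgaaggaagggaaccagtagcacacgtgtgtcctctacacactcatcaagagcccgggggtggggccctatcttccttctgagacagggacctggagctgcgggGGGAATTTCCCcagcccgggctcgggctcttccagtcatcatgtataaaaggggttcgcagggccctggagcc
Cxcl10: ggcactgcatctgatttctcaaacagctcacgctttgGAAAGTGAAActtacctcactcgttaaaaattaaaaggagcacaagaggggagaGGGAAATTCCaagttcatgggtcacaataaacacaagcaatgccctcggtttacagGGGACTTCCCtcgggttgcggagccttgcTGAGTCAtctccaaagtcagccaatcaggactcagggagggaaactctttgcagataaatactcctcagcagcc

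Cxcl1, Cxcl2 and Cxcl3 each held the same 11-base run, GGGAATTTCCC, which matched the NF-kB pattern on both strands and whose first base lay at -71, -97 and -73 from the start. Cxcl10 held the interferon-stimulated pattern at -213, NF-kB matches at -159 and -103 and the AP-1 pattern at -74. Pf4, Ccr1, Fpr1 and Fpr2 held none of the 3 patterns in their 250 bases. Among 32851 promoters of 27025 genes, 5.92% held the NF-kB pattern, 2.98% the interferon-stimulated pattern and 6.75% the AP-1 pattern. Pf4 (chr5:90772435-90773383), Cxcl3 (chr5:90786103-90789600), Cxcl1 (chr5:90891241-90893115) and Cxcl2 (chr5:90903871-90905938) lie in a cluster on the plus strand of chromosome 5. Cxcl10 (chr5:92346638-92348889) lies on the minus strand of the same chromosome. Fpr1 (chr17:17876471-17883940, minus strand) and Fpr2 (chr17:17887824-17893952, plus strand) are neighbours on chromosome 17. Ccr1 (chr9:123962124-123968692) lies on chromosome 9 and Cxcl16 (chr11:70453983-70459984) on chromosome 11. Cxcl10 overlaps Art3 and Cxcl16 overlaps Zmynd15 on the opposite strand, and Fpr2 overlaps Fpr3 on its own strand. No source used here says whether counting used strand, so reads of these pairs may not have been told apart.

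Totals were 15277642 to 21275491 counts in microglia and 14332532 to 23477906 counts in hippocampal libraries. Levels are given as CPM after TMM scaling of the library sizes (edgeR). Tlr7 averaged 2.27 and 2.11 CPM in F KO and 1.58 and 2.01 CPM in M KO cultures (myelin, then DMSO), against 172, 192, 176 and 186 CPM in the matching WT cultures. Xist and Ddx3y matched the labelled sex of every microglia library, with Xist at 0.929 to 1.96 CPM in M KO against 0 to 0.125 CPM in M WT cultures. Ddx3y was 0.183 to 0.596 CPM in F KO against 0 to 0.316 CPM in F WT cultures with DMSO. With myelin it was 0.300 to 0.398 CPM in F KO against 0 to 0.125 CPM in F WT cultures. Of 14 microglia markers, 13 averaged above 1 CPM in F KO cultures with DMSO. The summed level of 10 choroid plexus markers was 8.79 to 32.6 CPM in M KO against 165 to 299.6 CPM in M WT cultures with DMSO. It was 60.9 to 694 CPM in F KO against 114 to 196 CPM in F WT cultures with DMSO. The labels do not name separate cultures or animals for the 3 microglia libraries of a group, so the p-values reflect the spread among these libraries only, which may be technical. Sex and genotype cannot be told apart from differences between culture preparations.

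With myelin, Cxcl1 and Cxcl3 rose and Pf4 and Fpr1 fell in the cultures of both sexes and genotypes. Cxcl3 was 3.58-fold higher with myelin than with DMSO in F KO, 4.16-fold in F WT, 3.10-fold in M KO and 4.78-fold in M WT cultures. Cxcl1 was 2.08-, 2.87-, 3.75- and 2.70-fold higher in the same order. Cxcl2 was called higher in the WT cultures of both sexes and was not called in the KO cultures. The difference between genotypes in its response did not pass the test in either sex (adjusted p = 0.916 in F, 0.350 in M). All 9 genes passed the filter on low counts in microglia, and a gene was called at an adjusted p under 0.05 over the 14468 genes tested (edgeR's quasi-likelihood test, Benjamini-Hochberg). With myelin, 6 (2 higher, 4 lower) of the 9 were called in F KO cultures, where 41.2% of all genes were called. In F WT cultures 7 (5 higher, 2 lower) were called beside 40.4% of all genes, in M KO 7 (3 higher, 4 lower) beside 38.2%, and in M WT 8 (6 higher, 2 lower) beside 39.3%. The median log2 fold change of the 9 genes was 0.066, 0.28, 0.084 and 0.39 in that order, beside 0.014, 0.0033, -0.013 and 0.0037 over all genes. Cell type markers moved with myelin too. The sum of 14 microglia markers was 5309 to 5428 CPM with myelin against 6759 to 6870.1 CPM with DMSO in F KO, 5414 to 5629 against 7437 to 7469 CPM in F WT, 5886 to 5923 against 6799 to 7075 CPM in M KO and 5619.8 to 5799 against 7246 to 7655 CPM in M WT cultures. That of 5 monocyte markers was 2.82 to 3.90 against 7.21 to 8.02, 4.81 to 5.21 against 8.59 to 14.1, 2.75 to 3.14 against 5.82 to 8.79 and 5.81 to 7.28 against 15.0 to 15.7 CPM in the same order. Their part in the myelin results was not tested.

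Pf4, Cxcl2 and Cxcl3 were lower in KO than in WT cultures of both sexes with either treatment, and the size of each difference was unequal between the sexes. Cxcl3 in KO cultures was 7.31-fold below WT in M and 2.34-fold below WT in F with myelin. Cxcl1 differed between genotypes in F cultures, where KO was 2.71-fold above WT with myelin and 3.73-fold above it with DMSO. The M values were 0.14 and -0.33 on the log2 scale and were not called. Between KO and WT with myelin, 5 (1 higher, 4 lower) of the 9 genes were called in F cultures beside 7.28% of all genes, and 8 (0 higher, 8 lower) in M cultures beside 20.6%. With DMSO, 8 (4 higher, 4 lower) were called in F cultures beside 11.9% of all genes, and 4 (0 higher, 4 lower) in M cultures beside 20.9%. The median log2 fold change of the 9 genes was -0.37 in F and -0.68 in M with myelin, and -0.10 in F and -0.46 in M with DMSO, while the 4 medians over all genes lay between -0.0066 and 0.0055. In bulk cultures, fewer cells of a type and less RNA per cell cannot be told apart.

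The KO minus WT difference itself was set between the sexes as F minus M. With DMSO, 8 (7 higher, 1 lower) of the 9 genes were called beside 7.53% of all genes, and with myelin 6 (6 higher, 0 lower) were called beside 6.51%. The largest of these differences with DMSO was that of Cxcl1 at 2.23 ± 0.47 on the log2 scale, and with myelin that of Cxcl3 at 1.64 ± 0.21. With the levels of Ttr, a choroid plexus gene, and Pdgfra, an oligodendrocyte precursor gene, as covariates, 0 of the 9 genes were called in either comparison (edgeR; adjusted p = 0.166 to 0.955 for the genes called without covariates). The share of all genes called in this fit is not given here. From the values given here, a loss of calls over all genes cannot be told apart from a loss particular to these 9. The covariate fit gave 1.17 (adjusted p = 0.683) for Cxcl3 with DMSO and 1.56 (adjusted p = 0.166) with myelin, and 1.97 (adjusted p = 0.593) for Cxcl1 with DMSO. It moved 3 values with DMSO by over 1.5 times, to 0.56 (adjusted p = 0.873) for Cxcl2, against 0.92 without covariates, -0.12 (adjusted p = 0.896) for Ccr1, against -0.18, and 0.059 (adjusted p = 0.955) for Pf4, against 0.14. The summed level of 8 oligodendrocyte precursor markers was 109 to 123 CPM in F KO against 74.0 to 76.8 CPM in F WT, and 102 to 116 CPM in M KO against 117 to 120.5 CPM in M WT cultures with DMSO.

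Whether the myelin response differed between genotypes was tested as the KO response minus the WT response. By this test 3 (1 higher, 2 lower) of the 9 genes were called in F cultures beside 0.919% of all genes and 1 (0 higher, 1 lower) in M cultures beside 2.56%. The F minus M difference in the myelin response was called for 0 of the 9 genes in WT cultures, beside 0.0415% of all genes, and for 0 in KO cultures, beside 0.0553%. At an unadjusted p under 0.05 edgeR gave 1 of the 9 in WT cultures, beside 5.31% of all genes, and 2 in KO cultures, beside 8.22%. DESeq2 called 0 in both at an adjusted p under 0.05. In WT cultures 1 of the 9 genes was called between the sexes with each treatment. Ccr1 was called higher in F than in M WT cultures with DMSO, by 0.12 ± 0.033 (adjusted p = 0.0176), beside 3.70% of all genes called. Pf4 was called lower in F than in M WT cultures with myelin, at -0.12 ± 0.029 (adjusted p = 0.00590), beside 2.69%. The Ccr1 call was lost without F WT DMSO replicates 2 or 3 or M WT DMSO replicates 1 or 3, without TMM scaling or with Ttr and Pdgfra as covariates (adjusted p = 0.0649 to 0.841), and the Pf4 call without F WT myelin replicate 1 or M WT myelin replicate 1 or with Ttr and Pdgfra as covariates (adjusted p = 0.0703 to 0.949). With the covariates the Pf4 value was -0.061. Cxcl2 was called lower in F than in M WT cultures with myelin with its own groups fitted alone or without the filter on low counts (adjusted p = 0.00264 to 0.0465). Pf4 was called lower with DMSO without TMM scaling (adjusted p = 0.0366).

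**Figure D1:**
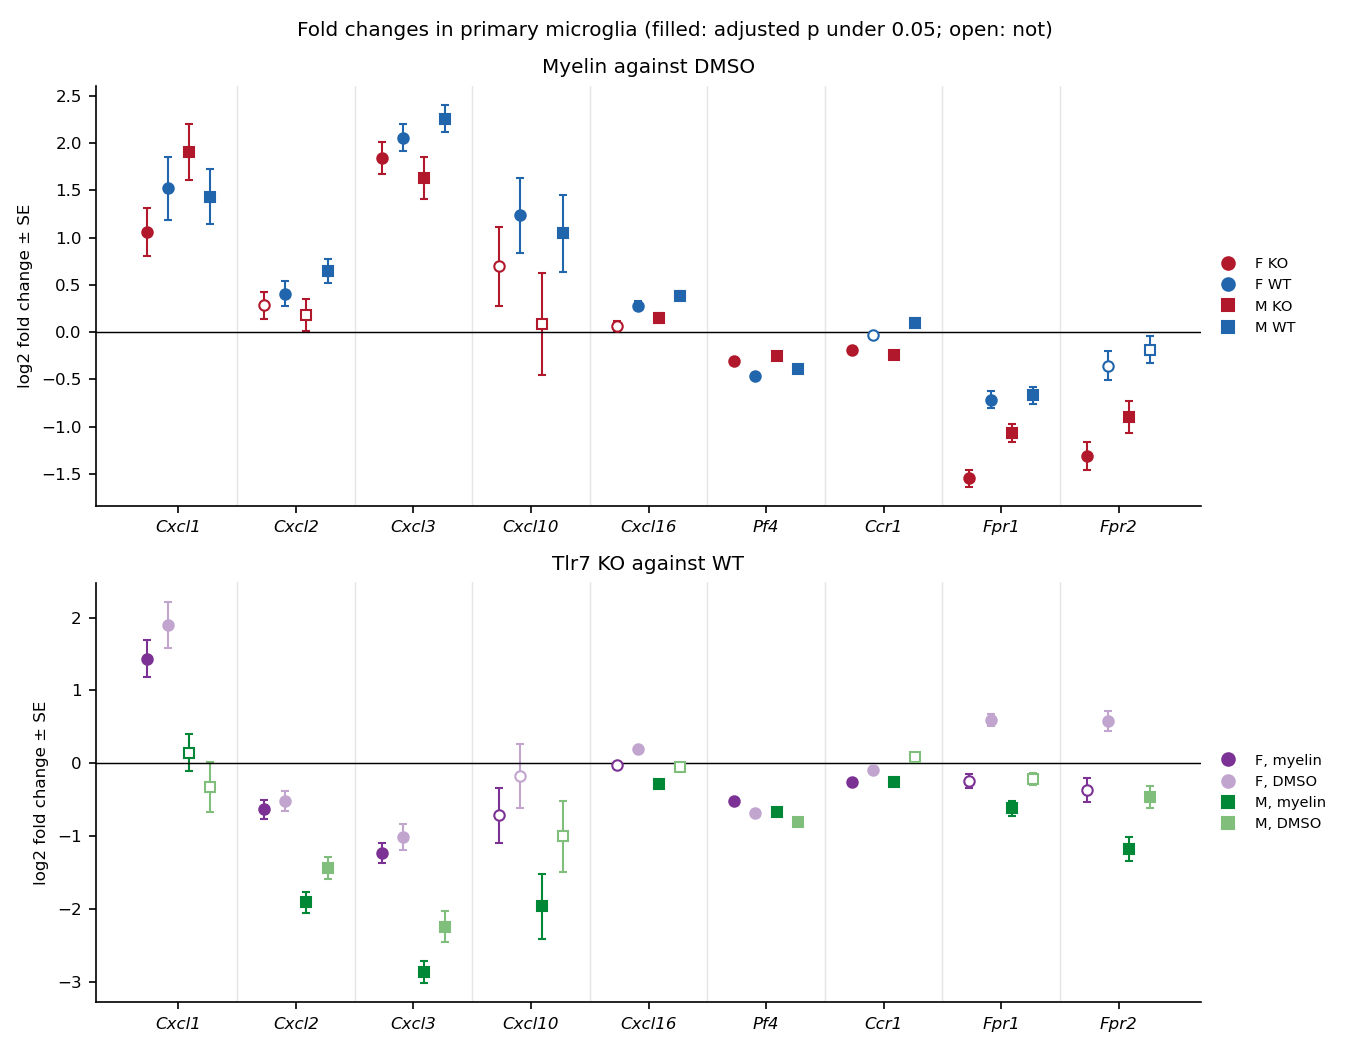
Log2 fold changes of the 9 genes in microglia (vertical axis), fitted over all 24 libraries, with bars for the SE and filled points for an adjusted p under 0.05. One panel sets myelin against DMSO in each culture and the other KO against WT. Cxcl3 lies lowest among the KO differences of M cultures with myelin, at -2.87, and Pf4 lies below 0 in all 8 comparisons.

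Cxcl3 had the widest range of the 9 genes, its highest group mean being 22.7-fold above its lowest. Cxcl3 in F KO cultures was 60.6, 48.2 and 40.8 CPM with myelin, against 12.7, 13.8 and 15.2 CPM with DMSO. Cxcl3 in F WT cultures was 119, 99.1 and 133 CPM with myelin, against 26.8, 24.995 and 32.2 CPM with DMSO. All F libraries with myelin lay above all F libraries with DMSO, and within each treatment the KO libraries lay below the WT libraries. Cxcl3 in M KO cultures was 19.7, 18.6 and 19.2 CPM with myelin, against 5.82, 6.18 and 6.53 CPM with DMSO. Cxcl3 in M WT cultures was 158, 116 and 146 CPM with myelin, against 30.4, 29.9 and 27.5 CPM with DMSO. M KO libraries with myelin lay below even the M WT libraries with DMSO. Myelin changed it by 1.84 ± 0.17 (adjusted p = 7.05e-08) on the log2 scale in F KO and 2.06 ± 0.15 (adjusted p = 1.96e-09) in F WT cultures. In M cultures the change was 1.63 ± 0.22 (adjusted p = 1.25e-05) in KO and 2.26 ± 0.14 (adjusted p = 5.53e-10) in WT. KO differed from WT by -1.23 ± 0.14 (adjusted p = 9.03e-06) in F and -2.87 ± 0.15 (adjusted p = 2.13e-10) in M cultures with myelin. With DMSO it differed by -1.01 ± 0.18 (adjusted p = 0.000884) in F and -2.24 ± 0.21 (adjusted p = 3.50e-07) in M cultures. The F minus M difference of the KO effect was 1.64 ± 0.21 (adjusted p = 0.000102) with myelin and 1.23 ± 0.29 (adjusted p = 0.0125) with DMSO. The myelin response of KO cultures minus that of WT cultures was -0.22 ± 0.23 (adjusted p = 0.843) in F and -0.63 ± 0.28 (adjusted p = 0.346) in M, not called.

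Cxcl2, which encodes MIP-2, was lower in KO than in WT cultures as Cxcl3 was. Cxcl2 in F KO cultures was 31.0, 22.8 and 20.6 CPM with myelin, against 21.2, 19.8 and 19.97 CPM with DMSO. Cxcl2 in F WT cultures was 39.7, 33.2 and 42.5 CPM with myelin, against 25.5, 30.4 and 31.1 CPM with DMSO. The F KO groups overlapped between treatments at 1 library, and the F WT groups did not overlap. Cxcl2 in M KO cultures was 15.2, 12.97 and 12.4 CPM with myelin, against 11.7, 10.6 and 13.4 CPM with DMSO. Cxcl2 in M WT cultures was 54.7, 47.8 and 49.2 CPM with myelin, against 34.4, 27.9 and 34.3 CPM with DMSO. In M cultures the highest KO library lay below the lowest WT library, and in F cultures KO and WT were apart within each treatment. KO differed from WT by -0.63 ± 0.13 (adjusted p = 0.00544) in F and -1.91 ± 0.14 (adjusted p = 1.27e-08) in M cultures with myelin. With DMSO it differed by -0.52 ± 0.14 (adjusted p = 0.0219) in F and -1.44 ± 0.15 (adjusted p = 1.09e-06) in M cultures. The F minus M difference of the KO effect was 1.28 ± 0.20 (adjusted p = 0.000661) with myelin and 0.92 ± 0.21 (adjusted p = 0.00943) with DMSO. With myelin it changed by 0.41 ± 0.13 (adjusted p = 0.0194) in F WT and 0.65 ± 0.13 (adjusted p = 0.000485) in M WT cultures. The KO cultures were not called, at 0.29 ± 0.14 (adjusted p = 0.123) in F and 0.18 ± 0.17 (adjusted p = 0.462) in M. The F WT call for myelin was lost without F WT DMSO replicate 1 or F WT myelin replicates 1 or 3 or with Ttr and Pdgfra as covariates (adjusted p = 0.0534 to 0.103). The F DMSO call for KO was lost without F KO DMSO replicates 2 or 3 or F WT DMSO replicates 2 or 3 or with Ttr and Pdgfra as covariates (adjusted p = 0.0713 to 0.103), and the F myelin call with its own groups fitted alone (adjusted p = 0.196). The F KO response to myelin was called without F KO myelin replicate 3 (adjusted p = 0.0419), and the difference between genotypes in the M response, -0.47 ± 0.21 (adjusted p = 0.350), was called with its own groups fitted alone (adjusted p = 0.0377).

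Cxcl1, which encodes KC, was counted 8 to 84 times per library and differed from Cxcl2 and Cxcl3 in its genotype pattern. Cxcl1 in F KO cultures was 4.89, 3.92 and 2.88 CPM with myelin, against 1.77, 1.81 and 2.03 CPM with DMSO. Cxcl1 in F WT cultures was 1.07, 1.37 and 1.88 CPM with myelin, against 0.560, 0.457 and 0.474 CPM with DMSO. In F cultures every KO library lay above every WT library of the same treatment. Cxcl1 in M KO cultures was 3.07, 2.38 and 2.51 CPM with myelin, against 0.743, 0.653 and 0.704 CPM with DMSO. Cxcl1 in M WT cultures was 2.60, 2.13 and 2.45 CPM with myelin, against 1.18, 0.867 and 0.598 CPM with DMSO. In M cultures KO and WT overlapped with either treatment, and in all 4 cultures the libraries with myelin lay above those with DMSO. KO was higher than WT by 1.44 ± 0.26 (adjusted p = 5.79e-05) in F cultures with myelin and 1.90 ± 0.32 (adjusted p = 1.28e-05) with DMSO. M cultures gave 0.14 ± 0.25 (adjusted p = 0.767) with myelin and -0.33 ± 0.34 (adjusted p = 0.562) with DMSO, which were not called. The difference between the sexes in the KO effect was 1.29 ± 0.36 (adjusted p = 0.0200) with myelin and 2.23 ± 0.47 (adjusted p = 0.000899) with DMSO. The call with myelin was lost without F KO myelin replicate 1, F WT myelin replicate 1, M KO myelin replicate 2 or M WT myelin replicate 1 (adjusted p = 0.0530 to 0.0936). Myelin raised Cxcl1 by 1.06 ± 0.25 (adjusted p = 0.000398) in F KO and 1.52 ± 0.33 (adjusted p = 0.000162) in F WT cultures. In M cultures the change was 1.91 ± 0.30 (adjusted p = 4.03e-07) in KO and 1.43 ± 0.29 (adjusted p = 5.11e-05) in WT. The F KO call was lost with Ttr and Pdgfra as covariates, which gave 1.31 (adjusted p = 0.0953). Of 8 neutrophil markers, Ly6g, Ngp, Retnlg and S100a9 had 0 counts in all 24 microglia libraries, and Elane and Mpo had at most 3 and 1 counts. The collagenase gene Mmp8 and the calgranulin gene S100a8 averaged above 1 CPM, and both were called higher with myelin in all 4 cultures (list medians 0.44 to 0.57). The sum of the 8 was 678 to 741 CPM with myelin against 626 to 680.1 CPM with DMSO in F KO, 798 to 818 against 705 to 769.9 CPM in F WT, 634 to 648 against 574 to 606 CPM in M KO and 759 to 799.7 against 638 to 666 CPM in M WT cultures. Almost all of it was Mmp8, and its part in the Cxcl1 result was not tested.

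Cxcl10 rested on 3 to 52 counts per library. Cxcl10 in F KO cultures was 2.04, 1.36 and 0.721 CPM with myelin, against 1.10, 0.685 and 0.775 CPM with DMSO. Cxcl10 in F WT cultures was 1.56, 1.9998 and 3.26 CPM with myelin, against 1.06, 1.03 and 0.791 CPM with DMSO. In F cultures only the WT groups were apart between treatments. Cxcl10 in M KO cultures was 0.615, 0.297 and 0.540 CPM with myelin, against 0.186, 0.238 and 0.960 CPM with DMSO. Cxcl10 in M WT cultures was 2.66, 1.375 and 1.69 CPM with myelin, against 1.41, 0.619 and 0.717 CPM with DMSO. Among M KO libraries with DMSO, replicate 3 stood above the other 2, and both the M KO and the M WT groups overlapped between treatments. Myelin raised it by 1.24 ± 0.40 (adjusted p = 0.00966) in F WT and 1.05 ± 0.41 (adjusted p = 0.0362) in M WT cultures. The KO cultures were not called, at 0.70 ± 0.42 (adjusted p = 0.188) in F and 0.084 ± 0.54 (adjusted p = 0.928) in M. The myelin response of KO cultures minus that of WT cultures was -0.54 in F and -0.96 in M, and neither was called. The F WT call was lost without F WT DMSO replicate 3 or F WT myelin replicate 3 or with Ttr and Pdgfra as covariates (adjusted p = 0.0515 to 0.122), and the M WT call without M WT DMSO replicates 2 or 3 or M WT myelin replicates 1 or 3, without TMM scaling or with Ttr and Pdgfra as covariates (adjusted p = 0.0516 to 0.238). With DMSO, KO differed from WT by -1.003 ± 0.49 (adjusted p = 0.148) in M cultures, and by -2.09 (adjusted p = 0.00787) without M KO DMSO replicate 3. With myelin the M KO difference from M WT was -1.97 ± 0.45 (adjusted p = 0.000763), a call lost with Ttr and Pdgfra as covariates, which gave -1.89 (adjusted p = 0.375). In F cultures KO differed from WT by -0.71 ± 0.38 (adjusted p = 0.316) with myelin and -0.17 ± 0.44 (adjusted p = 0.873) with DMSO. The difference between the sexes was 1.25 ± 0.59 (adjusted p = 0.214) with myelin, and none of these was called.

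Cxcl16, which encodes the membrane-bound ligand of CXCR6, varied little: its highest group mean was 1.36-fold above its lowest. Cxcl16 in F KO cultures was 82.3, 75.9 and 73.0 CPM with myelin, against 73.6, 72.0 and 75.3 CPM with DMSO. Cxcl16 in F WT cultures was 79.9, 77.5 and 77.8 CPM with myelin, against 63.1, 63.2 and 67.1 CPM with DMSO. The F groups overlapped between treatments in KO and were apart in WT cultures. Cxcl16 in M KO cultures was 66.5, 65.6 and 66.1 CPM with myelin, against 59.9, 54.4 and 64.2 CPM with DMSO. Cxcl16 in M WT cultures was 83.6, 79.1 and 79.5 CPM with myelin, against 60.7, 60.5 and 64.0 CPM with DMSO. The M groups were apart between treatments, and KO lay below WT without overlap with myelin only. Myelin raised it by 0.28 ± 0.049 (adjusted p = 3.65e-06) in F WT cultures. In M cultures the change was 0.15 ± 0.051 (adjusted p = 0.0133) in KO and 0.39 ± 0.050 (adjusted p = 3.16e-09) in WT, while F KO cultures gave 0.066 ± 0.049 (adjusted p = 0.295). KO was higher than WT in F cultures with DMSO by 0.19 ± 0.049 (adjusted p = 0.00524) and lower in M cultures with myelin, at -0.29 ± 0.049 (adjusted p = 8.22e-06). The first was lost with Ttr and Pdgfra as covariates, at 0.17 (adjusted p = 0.134) and the second with Ttr and Pdgfra as covariates, at -0.26 (adjusted p = 0.296). F cultures with myelin gave -0.024 ± 0.049 (adjusted p = 0.854) and M cultures with DMSO -0.054 ± 0.051 (adjusted p = 0.514), the second of which was called without TMM scaling (adjusted p = 0.0270). The KO effect was higher in F than in M cultures by 0.27 ± 0.069 (adjusted p = 0.0118) with myelin and 0.24 ± 0.071 (adjusted p = 0.0205) with DMSO. The M KO call for myelin was lost without M KO DMSO replicate 2 or M KO myelin replicate 3 or without TMM scaling (adjusted p = 0.05003 to 0.117). The difference between the sexes with myelin was lost without F KO myelin replicate 1 or M WT myelin replicate 1 (adjusted p = 0.0692 to 0.0989), and that with DMSO without F WT DMSO replicates 1 or 2, M KO DMSO replicate 2 or M WT DMSO replicate 3 (adjusted p = 0.0563 to 0.0929). The myelin response in KO minus that in WT was -0.22 ± 0.069 (adjusted p = 0.154) in F and -0.24 ± 0.071 (adjusted p = 0.0574) in M. The F difference was called without F KO myelin replicate 1 (adjusted p = 0.0384), and the M difference without M KO DMSO replicate 2 or M WT DMSO replicate 3 (adjusted p = 0.0198 to 0.0490).

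Pf4 was lower with myelin than with DMSO and lower in KO than in WT cultures. Pf4 in F KO cultures was 461, 467 and 477 CPM with myelin, against 588, 579.7 and 564 CPM with DMSO. Pf4 in F WT cultures was 654, 685 and 667 CPM with myelin, against 922, 934 and 913 CPM with DMSO. In F cultures the KO libraries with DMSO lay below the WT libraries with myelin, without overlap. Pf4 in M KO cultures was 454, 450.0 and 465 CPM with myelin, against 548, 549.7 and 535 CPM with DMSO. Pf4 in M WT cultures was 738, 727 and 722 CPM with myelin, against 929, 1006 and 932 CPM with DMSO. M libraries held the same order, and in both sexes myelin and DMSO did not overlap within a genotype. Myelin changed it by -0.30 ± 0.029 (adjusted p = 3.29e-13) in F KO against -0.46 ± 0.028 (adjusted p = 1.45e-20) in F WT cultures. It changed by -0.25 ± 0.029 (adjusted p = 1.05e-10) in M KO against -0.39 ± 0.028 (adjusted p = 1.61e-17) in M WT cultures. The difference between genotypes in this response was 0.16 ± 0.040 (adjusted p = 0.0275) in F and 0.14 ± 0.040 (adjusted p = 0.0507) in M cultures.

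The call for Pf4 in F cultures was lost without F KO DMSO replicates 2 or 3, F KO myelin replicates 2 or 3, F WT DMSO replicates 1 or 2 or F WT myelin replicates 1 or 3, with its own groups fitted alone, without the filter on low counts or with Ttr and Pdgfra as covariates (adjusted p = 0.0557 to 0.204). The M difference was called without M KO DMSO replicates 1 or 2, M KO myelin replicate 1, M WT DMSO replicates 1 or 3 or M WT myelin replicates 1 or 2, by DESeq2, with its own groups fitted alone, without TMM scaling, without the filter on low counts or with Ttr and Pdgfra as covariates (adjusted p = 0.00524 to 0.0445). KO differed from WT in Pf4 by -0.51 ± 0.029 (adjusted p = 5.08e-21) in F and -0.68 ± 0.029 (adjusted p = 2.70e-26) in M cultures with myelin. With DMSO the differences were -0.68 ± 0.029 (adjusted p = 2.07e-26) in F and -0.81 ± 0.029 (adjusted p = 3.00e-30) in M cultures. Set between the sexes as F minus M, the difference of these effects was 0.16 ± 0.041 (adjusted p = 0.00862) with myelin and 0.14 ± 0.040 (adjusted p = 0.0251) with DMSO. The difference with myelin was lost without F KO myelin replicate 3, M KO myelin replicate 1 or M WT myelin replicate 1 or without the filter on low counts (adjusted p = 0.0559 to 0.0927), and that with DMSO without F KO DMSO replicate 1, F WT DMSO replicates 1 or 3 or M WT DMSO replicate 2 (adjusted p = 0.0539 to 0.167). With DMSO the summed level of 9 border-associated macrophage markers was 1801 to 1907 CPM in F KO against 2299.9 to 2364 CPM in F WT, and 2088 to 2275 CPM in M KO against 2439 to 2591 CPM in M WT cultures, without overlap, and 7 of the 9 averaged above 1 CPM in F KO cultures with DMSO. With myelin that sum was 1623 to 1722 CPM in F KO against 1819 to 1928 CPM in F WT, and 1928 to 2051 CPM in M KO against 1978 to 2105 CPM in M WT cultures, and only the M ranges overlapped. Of the 7 markers tested, 1 rose and 2 fell in KO cultures of F with myelin, 0 rose and 2 fell in F with DMSO, 1 rose and 0 fell in M with myelin and 2 rose and 1 fell in M with DMSO. Their part in the Pf4 result was not tested. Of 8 platelet and megakaryocyte markers, 2 (Ppbp and Treml1) averaged above 1 CPM. The sum of the 8 with DMSO was 31.9 to 38.4 CPM in F KO against 83.0 to 95.2 CPM in F WT and 22.1 to 23.5 CPM in M KO against 87.6 to 109 CPM in M WT cultures. Most of it was Ppbp, itself a CXC chemokine gene. Ppbp averaged 31.3 CPM in F KO against 83.9 CPM in F WT and 19.4 CPM in M KO against 94.6 CPM in M WT cultures with DMSO. The platelet receptor gene Gp1bb had 0 counts in all 24 microglia libraries, and Gp9 had at most 3 counts.

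**Figure D2:**
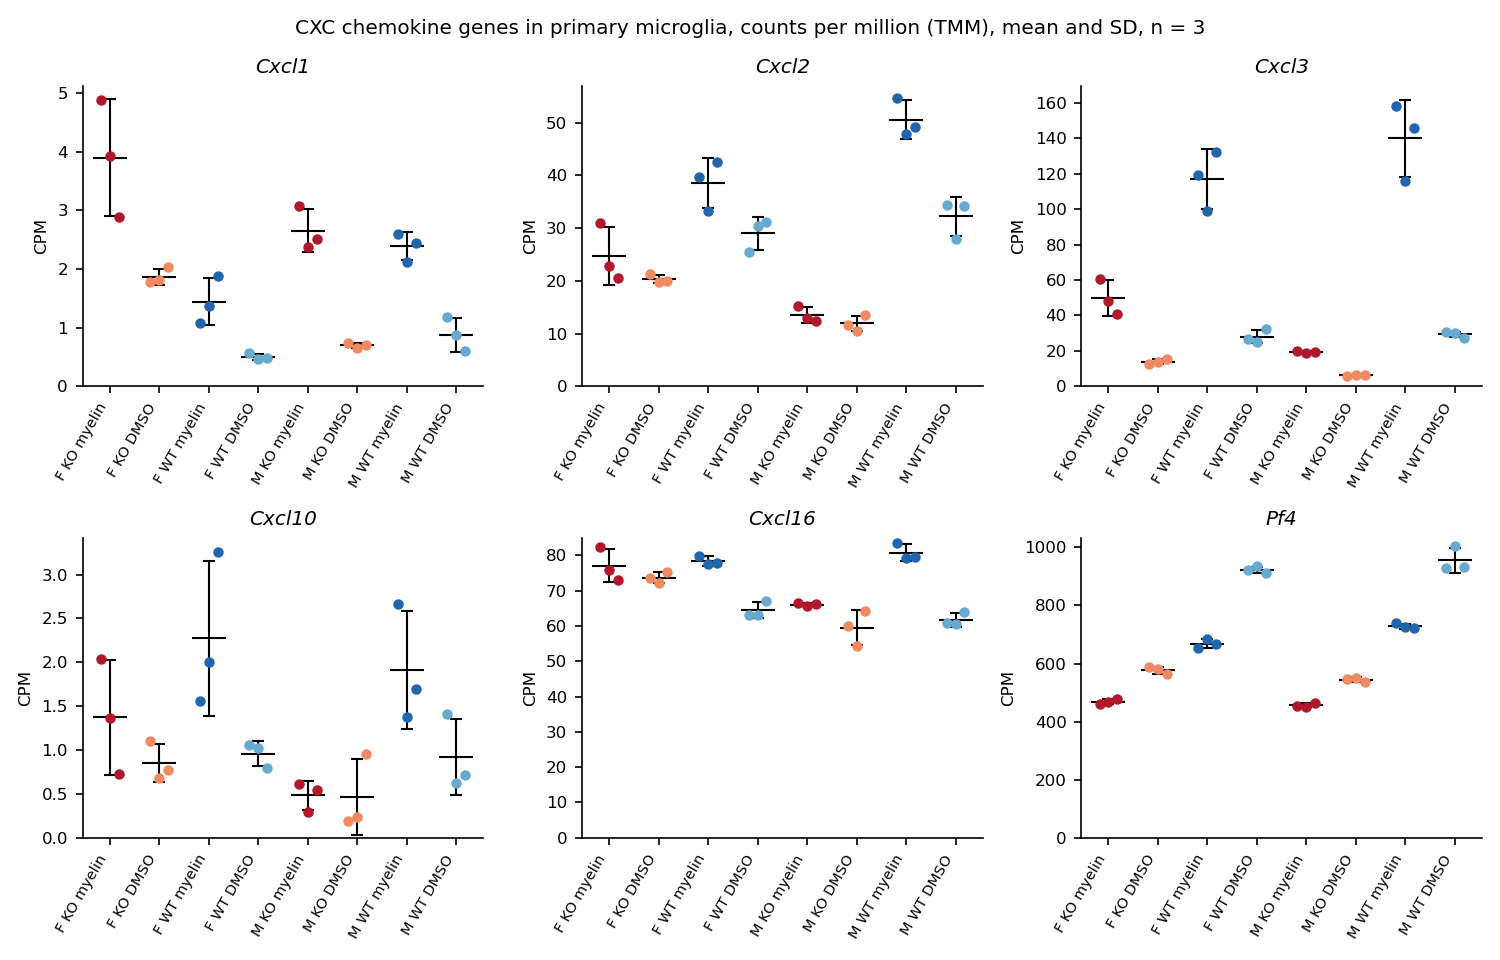
Levels of the 6 chemokine genes in the 24 microglia libraries (CPM with TMM scaling, vertical axis, 1 panel per gene), in the order KO with myelin, KO with DMSO, WT with myelin and WT with DMSO, F left of M; points are libraries, dashes means and bars SD (n = 3). Cxcl3 in M KO cultures with myelin averages 19.2 CPM, below the 29.3 CPM of M WT cultures with DMSO, and F KO cultures with myelin hold the highest Cxcl1 mean, 3.90 CPM.

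The receptor gene Ccr1 varied little, its highest group mean being 1.22-fold above its lowest. Ccr1 in F KO cultures was 286, 304 and 304 CPM with myelin, against 339, 334 and 344 CPM with DMSO. Ccr1 in F WT cultures was 346, 358 and 366 CPM with myelin, against 343, 376 and 370.0 CPM with DMSO. The F groups were apart between treatments in KO and overlapped in WT cultures. Ccr1 in M KO cultures was 292, 296 and 304 CPM with myelin, against 346, 365 and 348 CPM with DMSO. Ccr1 in M WT cultures was 361, 346 and 359 CPM with myelin, against 331, 337 and 332 CPM with DMSO. In M cultures the libraries with myelin lay below those with DMSO in KO and above them in WT, without overlap, and KO and WT overlapped only in F cultures with DMSO. Myelin changed Ccr1 by -0.19 ± 0.033 (adjusted p = 3.96e-06) in F KO and -0.25 ± 0.033 (adjusted p = 8.61e-09) in M KO cultures. It changed by -0.026 ± 0.033 (adjusted p = 0.577) in F WT cultures, not called, and by 0.093 ± 0.033 (adjusted p = 0.0183) in M WT cultures, called higher. The difference between genotypes in this response was -0.34 ± 0.046 (adjusted p = 9.27e-07) in M and -0.16 ± 0.046 (adjusted p = 0.0816) in F cultures. The F difference was called without F KO myelin replicates 2 or 3, by DESeq2, without TMM scaling or without the filter on low counts (adjusted p = 0.0224 to 0.0362). KO was lower than WT with myelin, at -0.26 ± 0.033 (adjusted p = 2.92e-08) in F and -0.26 ± 0.033 (adjusted p = 1.27e-08) in M cultures, and at -0.10 ± 0.033 (adjusted p = 0.0355) in F cultures with DMSO. M cultures with DMSO gave 0.083 ± 0.033 (adjusted p = 0.0607). The M WT call for myelin was lost without M WT DMSO replicates 1 or 3 or M WT myelin replicates 1 or 3, without TMM scaling, without the filter on low counts or with Ttr and Pdgfra as covariates (adjusted p = 0.0535 to 0.721). The F DMSO call for KO was lost without F KO DMSO replicates 1, 2 or 3 or F WT DMSO replicates 2 or 3, by DESeq2, with its own groups fitted alone, without the filter on low counts or with Ttr and Pdgfra as covariates (adjusted p = 0.0595 to 0.329). The difference between the sexes in the KO effect was -0.18 ± 0.046 (adjusted p = 0.00640) with DMSO, lost without M KO DMSO replicate 2 or without TMM scaling (adjusted p = 0.0680 to 0.155), and -0.0033 ± 0.046 (adjusted p = 0.983) with myelin.

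Fpr1, the receptor gene for formylated peptides, fell with myelin in the cultures of both sexes and genotypes, with the largest fitted change in F KO cultures. Fpr1 in F KO cultures was 11.2, 10.2 and 9.92 CPM with myelin, against 31.3, 29.9 and 30.6 CPM with DMSO. Fpr1 in F WT cultures was 11.9, 12.6 and 12.6 CPM with myelin, against 19.9, 21.3 and 19.7 CPM with DMSO. F KO libraries with DMSO were the highest of all 24 libraries. Fpr1 in M KO cultures was 9.09, 9.75 and 8.75 CPM with myelin, against 17.7, 18.5 and 21.7 CPM with DMSO. Fpr1 in M WT cultures was 16.3, 12.1 and 13.9 CPM with myelin, against 22.4, 21.8 and 23.1 CPM with DMSO. No culture had an overlap between myelin and DMSO. Myelin changed Fpr1 by -1.55 ± 0.089 (adjusted p = 1.01e-21) in F KO against -0.71 ± 0.090 (adjusted p = 1.80e-09) in F WT cultures. It changed by -1.07 ± 0.10 (adjusted p = 3.69e-14) in M KO against -0.67 ± 0.089 (adjusted p = 7.45e-09) in M WT cultures. The difference between genotypes in this response was -0.83 ± 0.13 (adjusted p = 3.88e-05) in F and -0.40 ± 0.13 (adjusted p = 0.0931) in M cultures. The M value was called without M WT myelin replicate 2 (adjusted p = 0.0365). With DMSO, KO was higher than WT in F cultures by 0.59 ± 0.081 (adjusted p = 1.39e-07). M cultures gave -0.22 ± 0.085 (adjusted p = 0.0605), a value called without M KO DMSO replicate 3 or without TMM scaling (adjusted p = 0.00460 to 0.0104). With myelin, KO was lower than WT in M cultures, at -0.62 ± 0.10 (adjusted p = 2.60e-06), a call lost with Ttr and Pdgfra as covariates, at -0.63 (adjusted p = 0.108), and F cultures gave -0.24 ± 0.10 (adjusted p = 0.143). The KO effect differed between the sexes by 0.81 ± 0.12 (adjusted p = 1.78e-06) with DMSO and 0.38 ± 0.14 (adjusted p = 0.0954) with myelin. The second was called without M WT myelin replicate 2 (adjusted p = 0.0428). The F minus M difference of the myelin response in KO cultures was -0.48 ± 0.13 (adjusted p = 0.145), called without the filter on low counts (adjusted p = 0.0376).

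Fpr2 had the same order of group means as Fpr1 in F cultures. Fpr2 in F KO cultures was 5.64, 6.53 and 4.69 CPM with myelin, against 15.7, 11.0 and 15.4 CPM with DMSO. Fpr2 in F WT cultures was 7.79, 6.56 and 7.40 CPM with myelin, against 9.03, 8.85 and 9.96 CPM with DMSO. Within each treatment the F KO and F WT groups were apart, KO being above WT with DMSO and below it with myelin. Fpr2 in M KO cultures was 4.24, 4.82 and 3.54 CPM with myelin, against 7.87, 6.53 and 8.96 CPM with DMSO. Fpr2 in M WT cultures was 7.86, 9.13 and 11.2 CPM with myelin, against 9.71, 12.6 and 9.80 CPM with DMSO. M KO libraries lay below M WT libraries with either treatment, and the M WT groups overlapped between treatments. Myelin changed Fpr2 by -1.31 ± 0.15 (adjusted p = 6.51e-10) in F KO and -0.90 ± 0.17 (adjusted p = 2.10e-05) in M KO cultures. WT cultures were not called, at -0.35 ± 0.15 (adjusted p = 0.0555) in F and -0.19 ± 0.15 (adjusted p = 0.343) in M, but the F value was called with its own groups fitted alone, without TMM scaling or without the filter on low counts (adjusted p = 0.0207 to 0.0284). The difference between genotypes in this response was -0.95 ± 0.21 (adjusted p = 0.0126) in F and -0.71 ± 0.22 (adjusted p = 0.0782) in M cultures. The F call was lost without F WT myelin replicate 1 or with Ttr and Pdgfra as covariates (adjusted p = 0.0686 to 0.150). The M difference was called without M KO DMSO replicate 2, M WT DMSO replicate 2 or M WT myelin replicate 1, with its own groups fitted alone or without the filter on low counts (adjusted p = 0.0267 to 0.0484). With DMSO, KO differed from WT by 0.58 ± 0.14 (adjusted p = 0.00283) in F and -0.46 ± 0.15 (adjusted p = 0.0202) in M cultures. With myelin it differed by -0.37 ± 0.16 (adjusted p = 0.191) in F and -1.17 ± 0.16 (adjusted p = 3.30e-07) in M cultures. The KO effect differed between the sexes by 0.81 ± 0.23 (adjusted p = 0.0247) with myelin and 1.05 ± 0.20 (adjusted p = 0.000382) with DMSO. The M DMSO call for KO was lost without M KO DMSO replicate 2 or M WT DMSO replicate 2 or with Ttr and Pdgfra as covariates (adjusted p = 0.137 to 0.458), and the F DMSO call for KO with Ttr and Pdgfra as covariates, at 0.60 (adjusted p = 0.0699). The difference between the sexes with myelin was lost without F KO myelin replicates 1 or 2, F WT myelin replicate 2, M KO myelin replicate 3 or M WT myelin replicate 3 (adjusted p = 0.0616 to 0.0943).

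**Figure D3:**
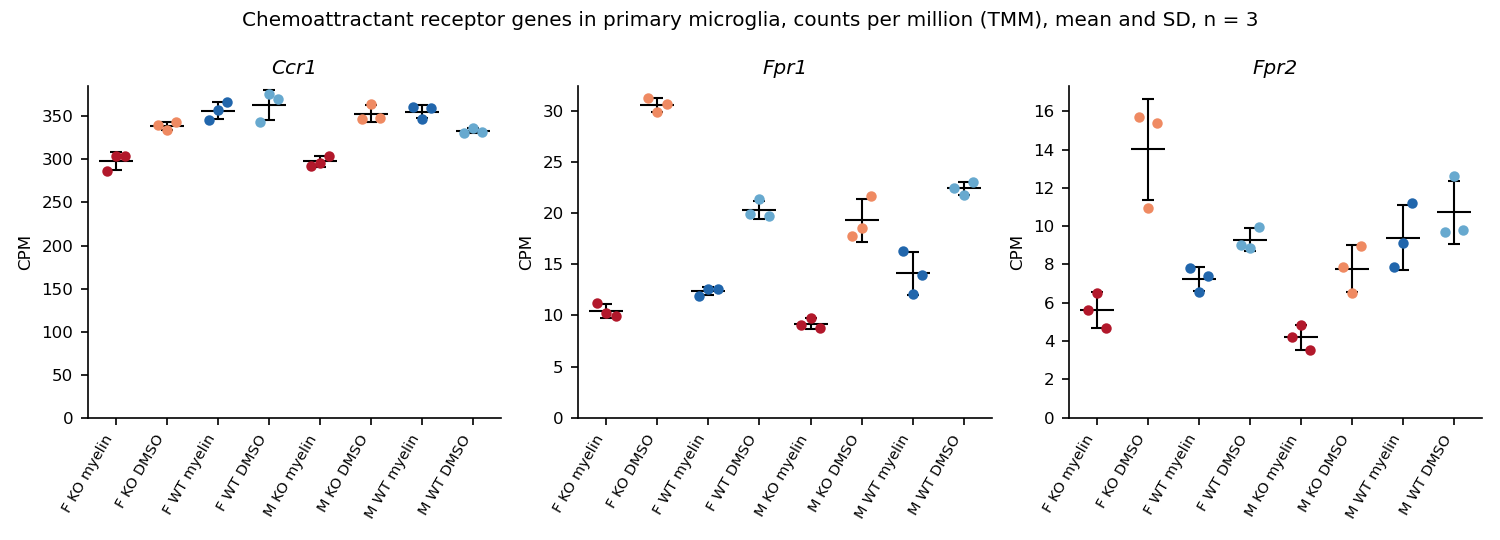
Levels of the 3 receptor genes in the 24 microglia libraries (CPM with TMM scaling, vertical axis), with groups, points, means and SD drawn as for the chemokine genes. Fpr1 averages 30.6 CPM in F KO cultures with DMSO, above every other group, and 10.5 CPM in F KO cultures with myelin.

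The 8 group means of each gene have an order in which some neighbouring groups did not differ beyond the range of their libraries. For Cxcl3, the M WT and F WT cultures with myelin overlapped with each other and headed the order, and F KO with myelin came next, apart from its neighbours. M WT and F WT with DMSO followed and overlapped with each other, and then came M KO with myelin, F KO with DMSO and M KO with DMSO, each apart from the next. For Pf4, M WT and F WT with DMSO overlapped at the top, and F KO and M KO with myelin overlapped at the bottom. For Fpr1, F KO with DMSO stood apart from M WT with DMSO, the next in order, and M KO with myelin stood apart below F KO with myelin. For Fpr2 each group overlapped with the next in the order F KO with DMSO, M WT with DMSO, M WT with myelin, F WT with DMSO, M KO with DMSO and F WT with myelin, which lay apart from F KO with myelin and M KO with myelin at the bottom. For Cxcl1, Cxcl2, Cxcl10, Cxcl16 and Ccr1, 5, 5, 6, 6 and 5 of the 7 steps in the order had an overlap.

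The genes whose log2 CPM followed each of the 9 most closely over the 24 libraries, as Pearson's r, are given as a description. The libraries share their groups, and part of each r reflects the group means alone. Cxcl3 was followed by Serpinb2 (r = 0.975), Socs1 (r = 0.973) and Tnfsf14 (r = 0.948), and Cxcl2 by Il21r (r = 0.943), H3f3b (r = 0.942) and Pml (r = 0.935). Cxcl1 was followed by Prdx6 (r = 0.914), Uchl1 (r = 0.892) and Sema3c (r = 0.873), and Cxcl10 by Rnf114 (r = 0.858), Mx2 (r = 0.843) and Oas2 (r = 0.837). Pf4 was followed by C5ar1 (r = 0.977), Ppbp (r = 0.965) and Tlr1 (r = 0.964), and Cxcl16 by H2-Q6 (r = 0.918), Acpp (r = 0.916) and Tgfbi (r = 0.906). Fpr1 was followed by Spata13 (r = 0.963), Irf5 (r = 0.947) and Itgal (r = 0.944), Fpr2 by Siglece (r = 0.862), Fpr1 (r = 0.860) and Tnip3 (r = 0.859) and Ccr1 by Arg1 (r = 0.868), Dock5 (r = 0.837) and Antxr2 (r = 0.830). Among the 9 genes, r was 0.876 for Cxcl2 with Cxcl3 (0.638 after group means were removed) and 0.860 for Fpr1 with Fpr2 (0.0791 after removal). For Cxcl1 with Cxcl3 it was 0.379 (0.593 after removal).

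Partner genes of the same pathways were counted in lists, with the range of the list's median log2 fold change over the 4 cultures or 4 genotype comparisons, and are read beside the shares and medians over all genes given above. Among ligands of CCR1 (6 of 6 tested), 4 rose and 1 fell in F KO, 4 and 1 in F WT, 3 and 1 in M KO and 4 and 1 in M WT cultures with myelin (medians 0.41 to 0.56). Between KO and WT, 0 rose and 3 fell in F with myelin, 0 and 3 in F with DMSO, 0 and 5 in M with myelin and 1 and 3 in M with DMSO (medians -0.42 to -0.12). Ccl5 averaged 37.6 ± 6.44 CPM with myelin against 1.31 ± 0.568 CPM with DMSO in F KO, and 57.4 ± 4.06 against 1.19 ± 0.271 CPM in M WT cultures (SD, n = 3). Its log2 fold changes with myelin were 4.88 to 5.59. Ccl7 changed by 0.99 to 1.66 and Ccl9 by 0.52 to 0.75 with myelin. In KO cultures Ccl7 changed by -1.88 to -1.21 and Ccl6 by -0.59 to -0.42. Among ligands of the formyl peptide receptors and the proteases that shed CXCL16 (5 of 6 tested), 1 rose and 2 fell in F KO, 2 and 2 in F WT, 1 and 2 in M KO and 2 and 2 in M WT cultures with myelin (medians 0.10 to 0.21). In KO against WT, 1 rose and 0 fell in F with myelin, 1 and 0 in F with DMSO, 4 and 0 in M with myelin and 3 and 0 in M with DMSO (medians -0.024 to 0.15). With myelin the log2 fold changes were -0.48 to -0.24 for Anxa1, which encodes annexin A1, -0.38 to -0.31 for the protease gene Adam10 and 0.10 to 0.21 for Adam17. Saa3, a serum amyloid A gene, was higher in KO by 0.50 to 1.09. Among other CXC and CX3C chemokines (4 of 10 tested), 0 rose and 2 fell in F KO, 0 and 2 in F WT, 0 and 2 in M KO and 1 and 2 in M WT cultures with myelin (medians -0.42 to -0.18). For genotype, 0 rose and 1 fell in F with myelin, 0 and 1 in F with DMSO, 0 and 2 in M with myelin and 0 and 2 in M with DMSO (medians -0.74 to 0.42). Ppbp, the platelet basic protein gene, changed by -0.90 to -0.34 with myelin and -2.29 to -0.90 in KO.

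Among CXC, CX3C and atypical chemokine receptors (4 of 12 tested), 1 rose and 1 fell in F KO, 2 and 1 in F WT, 2 and 1 in M KO and 2 and 1 in M WT cultures with myelin (medians -0.65 to 0.48). In the KO comparisons, 0 rose and 0 fell in F with myelin, 1 and 1 in F with DMSO, 1 and 1 in M with myelin and 2 and 2 in M with DMSO (medians -0.091 to 0.25). Cx3cr1, the fractalkine receptor gene, averaged 2.18 ± 0.917 CPM with myelin against 111 ± 4.66 CPM with DMSO in F WT cultures (SD, n = 3) and changed by -6.41 to -5.47 over the 4 cultures. Cxcr4, the CXCL12 receptor gene, changed by 0.19 to 0.71. Among CC chemokine receptors other than Ccr1 (4 of 9 tested), 0 rose and 2 fell in F KO, 0 and 3 in F WT, 0 and 3 in M KO and 0 and 2 in M WT cultures with myelin (medians -1.43 to -0.99). By genotype, 0 rose and 1 fell in F with myelin, 0 and 1 in F with DMSO, 0 and 1 in M with myelin and 0 and 1 in M with DMSO (medians -0.82 to -0.52). Among receptors for complement, lipids and peptides (9 of 16 tested), 0 rose and 5 fell in F KO, 1 and 5 in F WT, 0 and 5 in M KO and 2 and 4 in M WT cultures with myelin (medians -0.27 to -0.15). With Tlr7 lost, 0 rose and 6 fell in F with myelin, 0 and 5 in F with DMSO, 1 and 4 in M with myelin and 0 and 4 in M with DMSO (medians -0.30 to -0.21). With myelin, C5ar1, the receptor gene for complement C5a, changed by -0.27 to -0.15, and the purine receptor genes P2ry6 and P2ry12 by -0.47 to -0.24 and -1.36 to -0.94. In KO, C5ar1 changed by -0.44 to -0.32. Among genes of receptor coupling and desensitisation (12 of 12 tested), 1 rose and 7 fell in F KO, 2 and 7 in F WT, 1 and 7 in M KO and 2 and 6 in M WT cultures with myelin (medians -0.26 to -0.21). Set against WT, in KO, 0 rose and 0 fell in F with myelin, 1 and 1 in F with DMSO, 1 and 4 in M with myelin and 2 and 3 in M with DMSO (medians -0.047 to -0.025). The desensitisation genes Rgs2, Arrb1 and Grk6 changed by -1.11 to -0.996, -0.75 to -0.63 and -0.55 to -0.40 with myelin.

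In hippocampus the neutrophil chemokine and formyl peptide receptor genes were at low levels, and 4 of the 9 genes in the agonist experiment and 3 in the inhibitor experiment passed the filter on low counts. Cxcl3 had 0 counts in all 28 agonist libraries, which allows up to 0.124 to 0.214 CPM per library (3 counts, counting error only), and 1 count in the 17 inhibitor libraries together. Cxcl1 was counted in 27 agonist and 12 inhibitor libraries, Fpr1 in 19 and 14, Fpr2 in 14 and 10, and Cxcl2 in 5 and 2. The highest library held 2 counts of Cxcl2, 8 of Cxcl1, 5 of Fpr1 and 7 of Fpr2 in the agonist experiment, and 2, 4, 6 and 5 counts in the inhibitor experiment. Tlr7 itself averaged 2.06 to 3.29 CPM over the 8 hippocampal groups.

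Cxcl16 was called higher with gardiquimod in M hippocampi, 1 of the 4 genes tested beside 0.221% of all genes. Cxcl16 in M hippocampi was 2.21, 2.48 and 4.04 CPM with gardiquimod (lowest, median and highest of 7), against 0.927, 1.47 and 2.07 CPM with saline, without overlap. Cxcl16 in F hippocampi was 1.32, 2.18 and 2.98 CPM with gardiquimod, against 1.30, 1.90 and 2.97 CPM with saline, and these groups overlapped. The difference was 0.85 ± 0.19 (adjusted p = 0.0494) in M and 0.082 ± 0.19 (adjusted p = 0.947) in F, and the F minus M difference of -0.76 ± 0.27 (adjusted p = 0.188) was not called. The M call was lost when any of 9 of the 14 M libraries was left out, namely M gardiquimod replicates 1, 2, 5, 6 and 7 and M saline replicates 1, 4, 6 and 7 (adjusted p = 0.0584 to 0.147). It was also lost without TMM scaling (adjusted p = 0.0659). Choroid plexus markers in M hippocampi summed to 1834, 4578 and 6209 CPM with gardiquimod (lowest, median and highest). With saline they summed to 328, 380.1 and 5746 CPM. In F hippocampi the sums were 157, 5485 and 7195 CPM with gardiquimod against 300, 3283 and 6624 CPM with saline. The ranges overlapped in both sexes. With Ttr as a covariate the M difference of Cxcl16 was 0.76 (adjusted p = 0.301).

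In F hippocampi 0 of the 4 genes were called with gardiquimod, beside 0.0232% of all genes. At an unadjusted p under 0.05 edgeR gave 1, beside 6.06%. Averaged over the sexes 0 were called beside 0.215%, with 2 at an unadjusted p under 0.05, beside 6.48%. For the F minus M difference 0 were called beside 0.00581%, with 1 at an unadjusted p under 0.05, beside 16.2%. DESeq2 called 0 in each of these comparisons at an adjusted p under 0.05. Cxcl10 in F hippocampi was 0.940, 1.51 and 5.53 CPM with gardiquimod (lowest, median and highest of 7), against 0.847, 0.950 and 1.98 CPM with saline. Cxcl10 in M hippocampi was 0.474, 1.49 and 3.81 CPM with gardiquimod, against 0.371, 0.742 and 1.97 CPM with saline. All of these groups overlapped, and the differences of 0.90 ± 0.42 (adjusted p = 0.795) in F and 1.13 ± 0.44 (adjusted p = 0.215) in M were not called. Pf4 in M hippocampi was 0.910, 1.35 and 2.69 CPM with gardiquimod, against 0.556, 1.001 and 1.78 CPM with saline, a difference of 0.60 ± 0.29 (adjusted p = 0.303), and F hippocampi gave -0.050 ± 0.30 (adjusted p = 0.985). Ccr1 stayed at 1 to 18 counts per library and gave -0.067 ± 0.48 (adjusted p = 0.989) in F and 0.13 ± 0.44 (adjusted p = 0.912) in M.

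In PSUK+ hippocampi, M Inhibitor replicates 1 and 2 held Xist at 11.1 and 3.27 CPM, against at most 0.127 CPM in M Ctrl libraries, so results that rest on them are given with and without these libraries. With the inhibitor 0 of the 3 genes tested were called in F, beside 0.0876% of all genes, and 0 in M, beside 0.105%. At an unadjusted p under 0.05 edgeR gave 0 in F, beside 11.6%, and 0 in M, beside 17.6%. Averaged over the sexes 0 were called beside 0.0117% of all genes, with 0 at an unadjusted p under 0.05, beside 3.65%. In the F minus M difference 0 were called beside 2.41%, with 2 at an unadjusted p under 0.05, beside 25.4%. DESeq2 called 0 in each of these comparisons at an adjusted p under 0.05. With age as a covariate, 0 of the 3 genes were called in F, in M, on average or for the F minus M difference. The share of all genes called in that fit is not given here. Cxcl16 ranged over 0.684 to 3.47 CPM in F Inhibitor (n = 5) against 1.77 to 2.64 CPM in F Ctrl libraries (n = 3). It ranged over 0.955 to 2.47 CPM in M Inhibitor (n = 6) against 0.471 to 1.56 CPM in M Ctrl libraries (n = 3). Its difference was -0.75 ± 0.47 (adjusted p = 0.547) in F and 0.72 ± 0.50 (adjusted p = 0.437) in M; the M value was 0.72 (adjusted p = 0.520) without the 2 libraries. Pf4 ranged over 0 to 0.920 CPM in F Inhibitor against 0.699 to 0.989 CPM in F Ctrl, and over 0.508 to 1.28 CPM in M Inhibitor against 0.318 to 0.875 CPM in M Ctrl libraries. Its difference was -1.07 ± 0.57 (adjusted p = 0.482) in F and 0.63 ± 0.56 (adjusted p = 0.546) in M, and 0.80 (adjusted p = 0.521) in M without the 2 libraries. For the F minus M difference, Cxcl16 gave -1.47 ± 0.69 (adjusted p = 0.188) and Pf4 -1.70 ± 0.80 (adjusted p = 0.194), and without the 2 libraries -1.47 (adjusted p = 0.241) and -1.86 (adjusted p = 0.207). Cxcl10 gave -0.29 ± 0.68 (adjusted p = 0.889) in F and -0.62 ± 0.78 (adjusted p = 0.681) in M, the M value being -0.64 (adjusted p = 0.726) without the 2 libraries. Its F minus M difference was 0.33 ± 1.03 (adjusted p = 0.859), and 0.36 (adjusted p = 0.868) without them. The summed choroid plexus level was 4329 to 6129.8 CPM in F Inhibitor against 166 to 2366 CPM in F Ctrl, and 243 to 6650.0 CPM in M Inhibitor against 4499 to 4807 CPM in M Ctrl libraries. Its part in these differences was not tested.

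**Figure D4:**
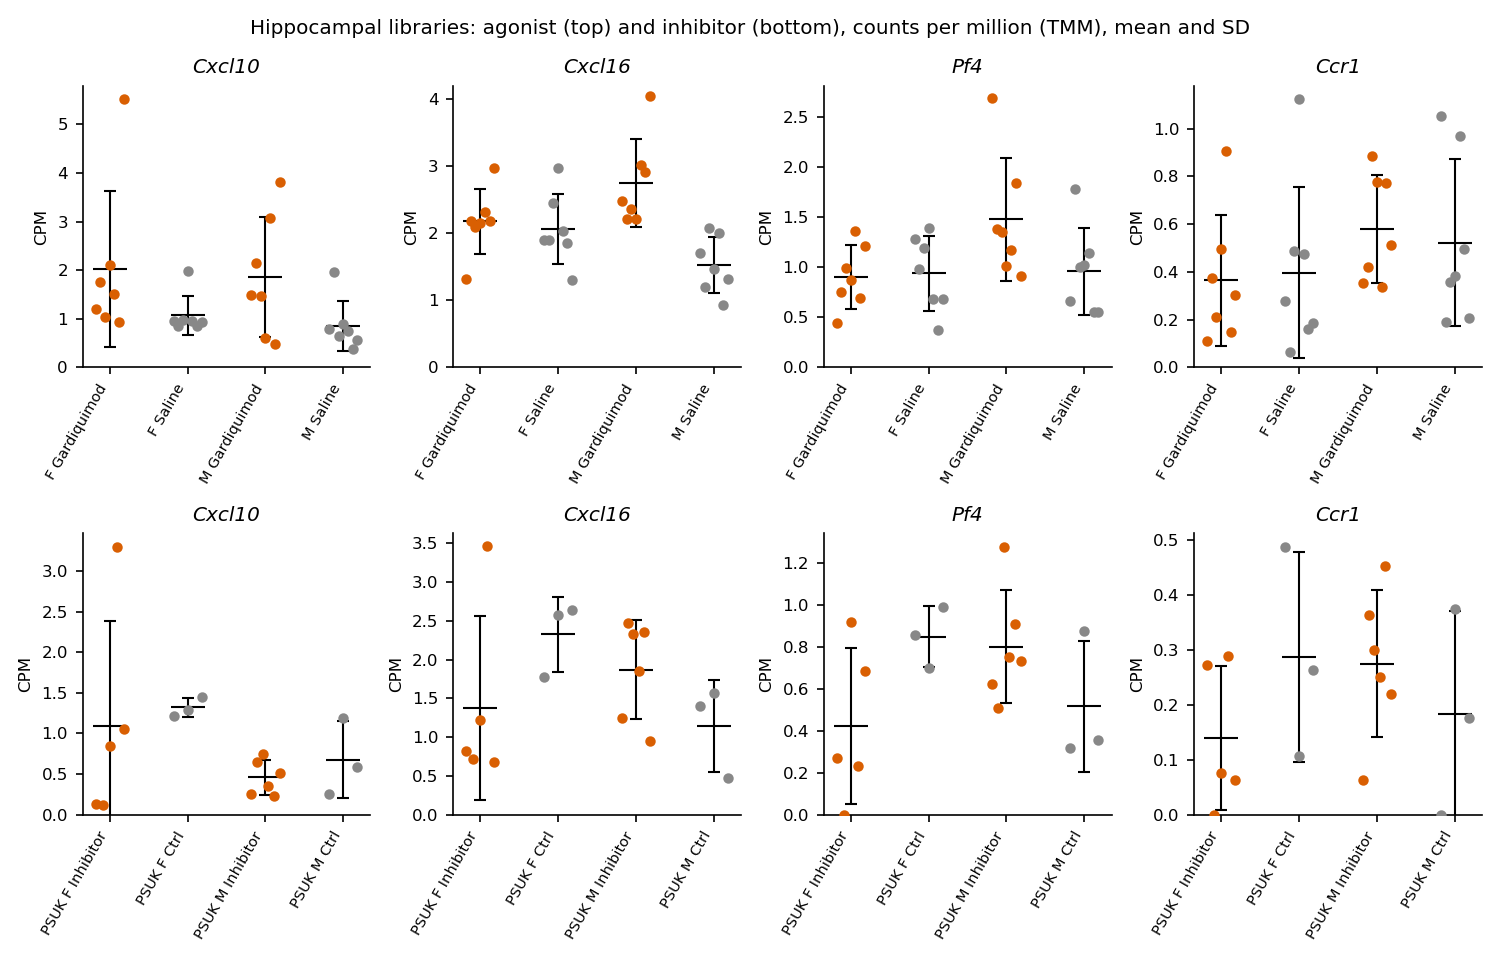
Levels of Cxcl10, Cxcl16, Pf4 and Ccr1 in hippocampus (CPM with TMM scaling, vertical axis), in the agonist experiment (7 libraries per group) and the inhibitor experiment (3 to 6 per group). Ccr1 was not tested in the inhibitor experiment. The treated group is left of its control, and points are libraries, dashes means and bars SD, cut at 0. The M gardiquimod libraries lie at 2.21 to 4.04 CPM for Cxcl16, above the 0.927 to 2.07 CPM of M saline libraries, and all other pairs of groups overlap.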

How the data were processed

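RNA was sequenced from its 3′ end (QuantSeq forward kit, per the labels' protocols), and the authors deposited raw counts per gene, 1 table for each of the 3 experiments. The build is GRCm38 (mm10) and DESeq2 1.38.3 is named, per the submitters' processing notes; no source used here names the aligner or counter. A 3′ end read samples a transcript about once, so counts were not divided by length.

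Each table was fitted on its own with edgeR 4.0.16 (R 4.3.3, limma 3.58.1): genes kept by filterByExpr, TMM scaling, 1 mean per group, a robust quasi-likelihood F test and Benjamini-Hochberg adjustment over all genes kept. The SE is the log2 fold change over the square root of F. Alternatives were DESeq2 1.42.0, no TMM, no filter, the compared groups alone, Ttr and Pdgfra covariates, a replicate block and single libraries left out. In the inhibitor experiment age was also fitted as a covariate. Same-numbered myelin and DMSO libraries deviated together in F KO cultures (r = 0.116 to 0.442 over the 3 pairs, all above the threshold of 0.1), so those numbers were taken as pairs from the data, and in no other 2 groups. The match was not always the closest: F KO DMSO replicate 3 had r = 0.277 with myelin replicate 2 and r = 0.116 with its own number. No 2 libraries of a group agreed within sampling noise (chi-square over degrees of freedom at least 2.18). The fit was tested on simulated data. The sex and treatment of hippocampal libraries come from the labels; no library was dropped from the fits given first.

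Members and gene lists were chosen with earlier results of these data known. Partner genes were named by rule: up to 3 per list by mean absolute change with myelin and up to 2 by that in KO, among genes of at least 4 mean CPM called in 1 direction in all 4 comparisons, and any list gene called in hippocampus. Some genes that these rules or lists hold are not reported here by name. Likeness was Pearson's r of log2 CPM with a prior count of 2. Protein sequences are not used here.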

Additional observations from a re-analysis of the deposited data

Results flagged for a closer look

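In hippocampus 22 combinations of a gene and a group of 4 to 7 libraries were checked for a library far from the others. Of these combinations, 5 held such a library. For Cxcl10 these were F gardiquimod replicate 7 at 5.53 CPM (91 counts), the next library at 2.11 CPM, F saline replicate 4 at 1.98 CPM (30 counts), the next library at 0.978 CPM, and M saline replicate 2 at 1.97 CPM (31 counts), the next library at 0.893 CPM. For Ccr1 it was F saline replicate 4 at 1.12 CPM (17 counts), the next library at 0.489 CPM, the same library as for Cxcl10. For Cxcl16 it was PSUK+ F Inhibitor replicate 4 at 3.47 CPM (60 counts), the next library at 1.23 CPM.

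Several microglia differences were unequal between groups by the test of the difference itself. The response to myelin differed between KO and WT for Fpr1 by -0.83, Fpr2 by -0.95 and Pf4 by 0.16 on the log2 scale in F cultures, and for Ccr1 by -0.34 in M cultures. The Pf4 call in F cultures was lost in 11 of 18 other fits and that of Fpr2 in 2 of 17. In M cultures the Pf4 difference was 0.14, not called in the fit given first but called in 13 of 18 others. The KO effect differed between F and M cultures with myelin by 1.29 for Cxcl1, 1.28 for Cxcl2, 1.64 for Cxcl3, 0.27 for Cxcl16, 0.16 for Pf4 and 0.81 for Fpr2. With DMSO it differed by 2.23 for Cxcl1, 0.92 for Cxcl2, 1.23 for Cxcl3, 0.24 for Cxcl16, 0.14 for Pf4, -0.18 for Ccr1, 0.81 for Fpr1 and 1.05 for Fpr2. With Ttr and Pdgfra as covariates, 0 of the 9 genes were called for the KO effect between the sexes with either treatment.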

How the results depend on the processing

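Over 2638 fits of single members under other settings, 2475 stayed on the same side of the threshold, 119 fell below it and 44 passed it. Of the results called in either fit, 0 reversed in direction. Where neither fit gave a call, direction was not compared and the sign changed in some. These fits share libraries. The number of all genes called moved by over 1.5 times in 115 of 398 fits of a comparison. Shares of all genes are not given beside the counts below, so these counts do not tell a shift over all genes from one of the 9. Numbers of the 9 genes called moved by over 1.5 times as follows. With Ttr and Pdgfra levels as covariates there were 4 for KO against WT in F with DMSO, 5 for it in M with myelin, 0 for the sex difference of the KO effect with either treatment, 1 for the genotype difference of the myelin response in F and 2 in M, and 0 for F against M in WT with either treatment. The genotype difference of the myelin response in M was called for 4 genes with its groups fitted alone, 3 without the filter on low counts, 2 without TMM, 2 by DESeq2 and 3 with the replicate block. F against M in WT with myelin gave 2 with groups alone and 2 without the filter, and the sex difference of the myelin response in KO gave 1 without the filter. Gardiquimod in M gave 0 without TMM and 0 with Ttr as a covariate. Leaving out 1 library at a time gave 1 to 4 for the genotype difference of the myelin response in M and 1 to 4 in F, 3 to 7 for the sex difference of the KO effect with myelin and 6 to 8 with DMSO, 3 to 6 for KO in M with DMSO, 0 to 1 and 0 to 1 for F against M in WT with DMSO and myelin, and 0 to 1 for gardiquimod in M. Leaving out PSUK+ M Inhibitor replicates 1 and 2, chosen after seeing the data, left 0 of the genes called in M, on average and for the sex difference. Replicate numbers were taken to pair the myelin and DMSO libraries of F KO cultures (r above 0.1 in all 3 pairs), and there the replicate block changed no call. Elsewhere no 2 groups had r above 0.1 in all 3 pairs, and 6 of 72 same-numbered pairs across sex or genotype passed it. Over all groups 1 of 168 other-numbered pairs passed it. That pair lay within F KO cultures, DMSO replicate 3 with myelin replicate 2 (r = 0.277). The same-numbered pairs of replicates 3 and 2 there had r = 0.116 and 0.214. In all, 13 of 24 libraries were closest to one with their own number. With the replicate block 3 genes were called for the genotype difference in M, against 1 without it, and no other count moved by over 1.5 times. It added the calls of Pf4 (adjusted p = 0.0277) and Cxcl16 (adjusted p = 0.0405) there, of Ccr1 for this difference in F (adjusted p = 0.0353) and of Ccr1 for KO in M with DMSO (adjusted p = 0.0373). No paired analysis was possible for hippocampus because its numbers follow sample order. Scaling without TMM shifted the median of all genes by -0.11 for the inhibitor in M and by 0.16 for its sex difference. Depth limits Cxcl1 and Cxcl10 in microglia and every one of the genes in hippocampus, where the highest count of any was 91.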

Other observations

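Among the partner genes of the pathway, 3 were called in hippocampus, all at low levels. Ccl5, a ligand gene of CCR1 that rose with myelin in the cultures, was higher with gardiquimod averaged over the sexes, by 1.49 ± 0.33 (adjusted p = 0.0319). Its lowest, median and highest levels were 0.396, 0.627 and 1.03 CPM with gardiquimod against 0, 0.196 and 0.661 CPM with saline in F, and 0.142, 0.626 and 1.06 CPM against 0.0618, 0.228 and 0.417 CPM in M hippocampi. The call was lost when any of 16 of the 28 libraries was left out, namely F gardiquimod replicates 2, 4 and 7, F saline replicates 1, 2, 3, 5 and 7, M gardiquimod replicates 2, 3, 5 and 7 and M saline replicates 2, 4, 5 and 6 (adjusted p = 0.0505 to 0.101). It was lost as well with Ttr as a covariate (adjusted p = 0.149). Ackr4, an atypical receptor gene for CCL19 and CCL21, ranged over 1.27 to 4.05 CPM in F Inhibitor against 0.0611 to 0.484 CPM in F Ctrl libraries. It ranged over 0.248 to 1.14 CPM in M Inhibitor against 0.942 to 2.92 CPM in M Ctrl libraries. The F minus M difference in its response to the inhibitor was 4.36 ± 0.77 (adjusted p = 0.0129), a call lost without PSUK F Ctrl replicate 3 (adjusted p = 0.0544). Without M Inhibitor replicates 1 and 2, which held Xist, it was 4.09 (adjusted p = 0.0412). Camp, whose cathelicidin peptide is a ligand of FPR2, ranged over 0 to 0.186 CPM in F Inhibitor against 0.244 to 0.725 CPM in F Ctrl libraries. It ranged over 0.435 to 2.18 CPM in M Inhibitor against 0.0589 to 0.375 CPM in M Ctrl libraries. Its F minus M difference was -4.83 ± 1.21 (adjusted p = 0.0421) and was lost when any of 9 libraries was left out, namely PSUK F Ctrl replicates 2 and 3, PSUK F Inhibitor replicates 1, 2 and 4, PSUK M Ctrl replicates 1 and 3 and PSUK M Inhibitor replicates 3 and 4 (adjusted p = 0.0502 to 0.173). It was lost as well without TMM scaling, at -4.64 (adjusted p = 0.0506), and without M Inhibitor replicates 1 and 2 together Camp did not pass the filter on low counts. The choroid plexus marker sum ran over the groups of the inhibitor experiment as given above, and its part in the Ackr4 and Camp results was not tested.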
